A study of Homo sapiens with 6 samples.

Results

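The genes described here form the switch that lets a cell pass from G1 into DNA replication. They are 4 inhibitors of cyclin-dependent kinases (CDKN2A, CDKN2B, CDKN2C and CDKN1B), the D cyclins (CCND1, CCND2 and CCND3) and the retinoblastoma family (RB1, RBL1 and RBL2). They were chosen by name, and each was read from the brightest probe set paired with its symbol alone, by the mean over 6 arrays. Of these 10 genes, 9 were measured among the 18377 genes tested, each by a single probe set, and CDKN2C was not analysed here.

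D cyclins bind the kinases CDK4 or CDK6, and the active kinases phosphorylate the retinoblastoma proteins, which then release E2F transcription factors to turn on the genes of S phase. INK4 proteins, among them the products of CDKN2A, CDKN2B and CDKN2C, block CDK4 and CDK6, and p27, the product of CDKN1B, holds back the complex of cyclin E and CDK2. RBL1 (p107) and RBL2 (p130) are relatives of RB1, and RBL2 is known for its place in the DREAM complex, which keeps cell cycle genes silent in resting cells. Much of this control acts on proteins, by phosphorylation and breakdown, which an RNA array does not read.

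The cells were MDA-MB231, an established human triple-negative breast cancer line of mesenchymal character, in which the CDKN2A locus is known to be deleted. The vector group held cells transfected with empty pTargeT, a mammalian expression vector. The GHSROS group held cells transfected with pTargeT carrying GHSROS, a long noncoding RNA from the opposite strand of the ghrelin receptor gene GHSR. Both groups were grown in DMEM/F12 medium with serum, and each gave 3 samples of total RNA, which the submitters call biological replicates, for 6 Affymetrix Human Gene 1.0 arrays. The labels do not say whether the transfected cells were clones or pools, or how long after transfection they were taken. They do not say either whether each replicate was transfected on its own, and if not, the p-values cover only the spread between these RNA samples, which may be technical.

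Values are log2 levels. Probe sets differ in brightness, so where a level is placed below beside the array medians or beside other genes, that place is a description and no measure of which gene has more transcript. The array medians lay between 6.559 and 6.648. No probe set is named for GHSROS in the annotation, so the labels could not be checked by the transfected transcript. Genes known to be high in mesenchymal breast lines had a median level of 12.77 over 8 genes, though the matrix gene SPARC was at 6.32. Of 10 luminal and epithelial genes, the receptor genes ESR1 and PGR, lacking in triple-negative cells, were at 5.13 and 4.57 and the cadherin gene CDH1 at 5.17. ERBB3, FOXA1, EPCAM and GATA3 were at 6.86, 6.90, 7.37 and 7.40, above the array medians, and the keratin genes KRT8, KRT18 and KRT19 were bright, at 12.09, 12.04 and 11.83. Vector array 1 and GHSROS array 3 stood apart on the first principal component, at -29.58 and -28.99 against 4 to 22.22 on the other arrays.

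No member was called as different between the groups. In limma 0 of 9 members passed an adjusted p of 0.05, and 0 of 9 had an unadjusted p under 0.05, where over all genes these shares were 0% and 1.77%. The groups overlapped in all 9 measured members, while they did not overlap in 5.51% of all genes. Log2 fold changes (GHSROS minus vector) were above 0 in 6 members and below 0 in 3, with a median of 0.03 beside 0.0019 over all genes. The split was 7 to 2 after quantile normalization and 5 to 4 with each array centred on its median. The unadjusted p-values of the members ran from 0.501 to 0.996. The difference farthest from 0 was the -0.10 of CCND2, and it turned to 0.05 without GHSROS array 1. The 95% confidence intervals were narrowest for CCND1, from -0.24 to 0.13, and widest for RBL2, from -0.60 to 0.73. A 1.5-fold difference in either direction thus lay inside the interval of RBL2 and outside that of CCND1.

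**Figure D1:**
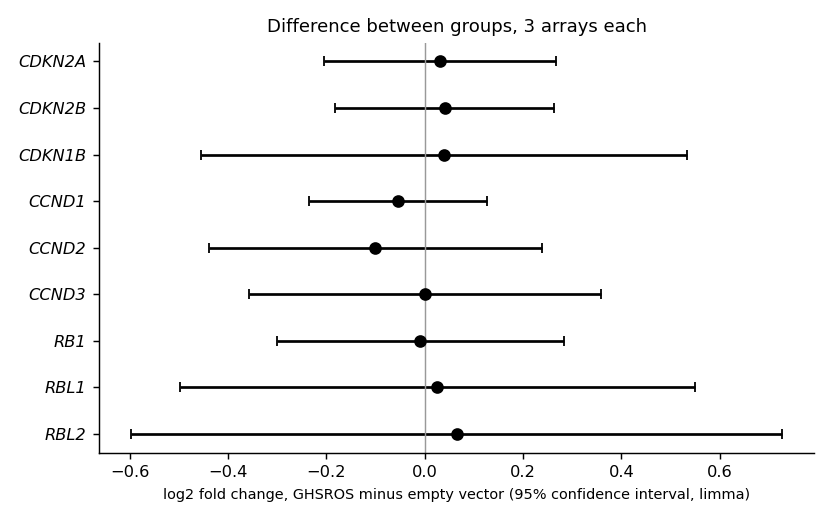
Log2 fold change of each of the 9 measured members (x axis, GHSROS minus empty vector, 3 arrays each) with its 95% confidence interval from limma. Every interval includes 0, and the point estimates lie between -0.10 and 0.06.

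Among the inhibitors, the INK4 genes CDKN2A and CDKN2B read low and nearly flat, and CDKN1B read higher than the array medians and moved between arrays of the same group. CDKN2A encodes the INK4 protein p16 and, in another reading frame, ARF, which stabilises p53. Its levels were 6.51, 6.55 and 6.50 on vector arrays 1 to 3 and 6.51, 6.44 and 6.72 on GHSROS arrays 1 to 3. GHSROS array 3 was the highest, and the other 5 arrays lay within 0.12 of each other, so the groups overlapped. The means were 6.52 ± 0.03 (SD, n = 3) and 6.55 ± 0.15 (SD, n = 3), and the log2 fold change was 0.03 (SE 0.10, limma adjusted p = 1). Without GHSROS array 3 it became -0.05. CDKN2B, the gene of the INK4 protein p15, had levels of 5.999, 6.02 and 6.06 with the vector and 6.11, 5.92 and 6.17 with GHSROS. The GHSROS arrays held both the lowest and the highest value of CDKN2B, and its log2 fold change was 0.04 (SE 0.09, limma adjusted p = 1).

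Both INK4 levels, with means of 6.54 and 6.05 over the 6 arrays, were under the array medians, but neither was at the bottom of the scale. Olfactory receptor genes, which breast cells are not known to use, give a picture of what silent genes read on these arrays. Over 339 of them the median level was 4.33, the 10th percentile 3.62 and the 90th percentile 5.39. CDKN2A read above 337 of those 339 genes and CDKN2B above 329. The CDKN2A locus is known to be deleted in this line, so the level of its probe set is no evidence of CDKN2A transcript. For CDKN2B these values alone do not tell whether its probe set read any transcript. Probe sets differ in composition and in how much unrelated RNA they bind.

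Genes that flank this locus on the short arm of chromosome 9 were read beside it, in the order given by a RefSeq table of assembly GRCh38.p14. MTAP, the gene of a methionine salvage enzyme, lies next to CDKN2A and is often lost with it in tumours. Its levels were 4.53, 4.47 and 4.50 with the vector and 4.42, 4.48 and 4.62 with GHSROS, so the groups overlapped. On the MTAP side, IFNE and IFNB1, which encode type I interferons, averaged 3.53 and 3.797 over the 6 arrays, and the ubiquitin ligase adaptor gene KLHL9 averaged 4.75. HACD4, a fatty acid elongation gene farther out, averaged 3.84. FOCAD averaged 5.75, and MLLT3, the outermost gene read on that side, averaged 10.16. On the CDKN2B side, DMRTA1 averaged 6.64, ELAVL2, a neuronal RNA-binding protein gene, 4.01, and TUSC1 7.33. These levels come from different probe sets and do not tell which of the genes are present or transcribed. None of the 10 passed limma, and IFNB1 alone had no overlap between the groups, at 3.78, 3.71 and 3.62 with the vector and 3.86, 3.89 and 3.92 with GHSROS (unadjusted p = 0.0561, adjusted p = 1). Over all genes 5.51% had no overlap, and the mean of IFNB1 lay below the olfactory receptor median of 4.33.

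**Figure D2:**
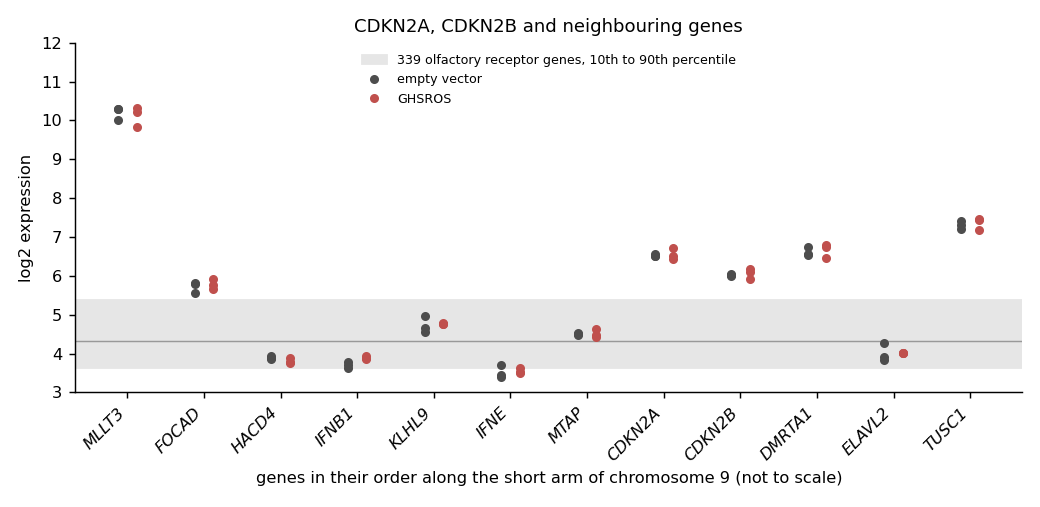
Log2 expression on each array (y axis) of CDKN2A, CDKN2B and 10 genes that flank them, in their order along chromosome 9 (x axis, not to scale), with empty-vector arrays in grey and GHSROS arrays in red. The grey band runs from the 10th to the 90th percentile of 339 olfactory receptor genes (3.62 to 5.39), with their median as a line. MTAP lies within the band, while CDKN2A and CDKN2B lie above it.

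CDKN1B encodes p27, a KIP inhibitor that accumulates in resting cells. Its levels were 9.93, 9.54 and 9.22 on the vector arrays and 9.43, 9.47 and 9.91 on the GHSROS arrays. Vector array 1 and GHSROS array 3 were the highest and vector array 3 the lowest, so the vector arrays alone spanned the whole range of 0.71. The group means were 9.56 ± 0.35 (SD, n = 3) and 9.60 ± 0.27 (SD, n = 3), with a log2 fold change of 0.04 (SE 0.21, limma adjusted p = 1). The estimate turned to -0.12 without GHSROS array 3 and to -0.13 without vector array 3, and it was 0.22 without vector array 1. Its sign thus hung on which array was left out.

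The D cyclins behaved in different ways on the same arrays. CCND1, the cyclin most often amplified in breast cancer, had levels of 12.05, 12.01 and 12.04 with the vector and 11.95, 11.97 and 12.01 with GHSROS. All 6 arrays lay within 0.10, a range smaller than that of all but 171 of the 18377 genes (0.931%) and all but 41 of the 1838 genes at or above the 90th percentile of level (2.23%). Only GHSROS array 3, at 12.0077 against 12.0067 on vector array 2, kept the groups from being apart. The means were 12.03 ± 0.02 (SD, n = 3) and 11.98 ± 0.03 (SD, n = 3). The log2 fold change of -0.05 (SE 0.08, limma adjusted p = 1) kept its sign in each of 17 alternative settings, between -0.07 and -0.03. Some of those settings could not change it, since they altered only the SE, the genes tested or the use of further probe sets. The moderated SE is larger than the SDs of CCND1 itself, since limma draws the spread of each gene towards that of the others.

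CCND2, a D cyclin that many carcinomas silence, had levels of 9.62, 9.47 and 9.44 with the vector and 9.11, 9.54 and 9.58 with GHSROS. A single array, GHSROS array 1, was low, and the other 5 lay between 9.44 and 9.62. The means were 9.51 ± 0.10 (SD, n = 3) and 9.41 ± 0.26 (SD, n = 3), with a log2 fold change of -0.10 (SE 0.14, limma adjusted p = 1). CCND3, the D cyclin best known from lymphocytes, had levels of 11.12, 11.42 and 11.59 with the vector and 11.42, 11.53 and 11.17 with GHSROS. Here vector array 1 and GHSROS array 3 were the lowest, and the other 4 arrays lay between 11.42 and 11.59. The means were both 11.37, with SDs of 0.24 and 0.18 (n = 3 each), and the 95% confidence interval of the difference ran from -0.36 to 0.36.

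**Figure D3:**
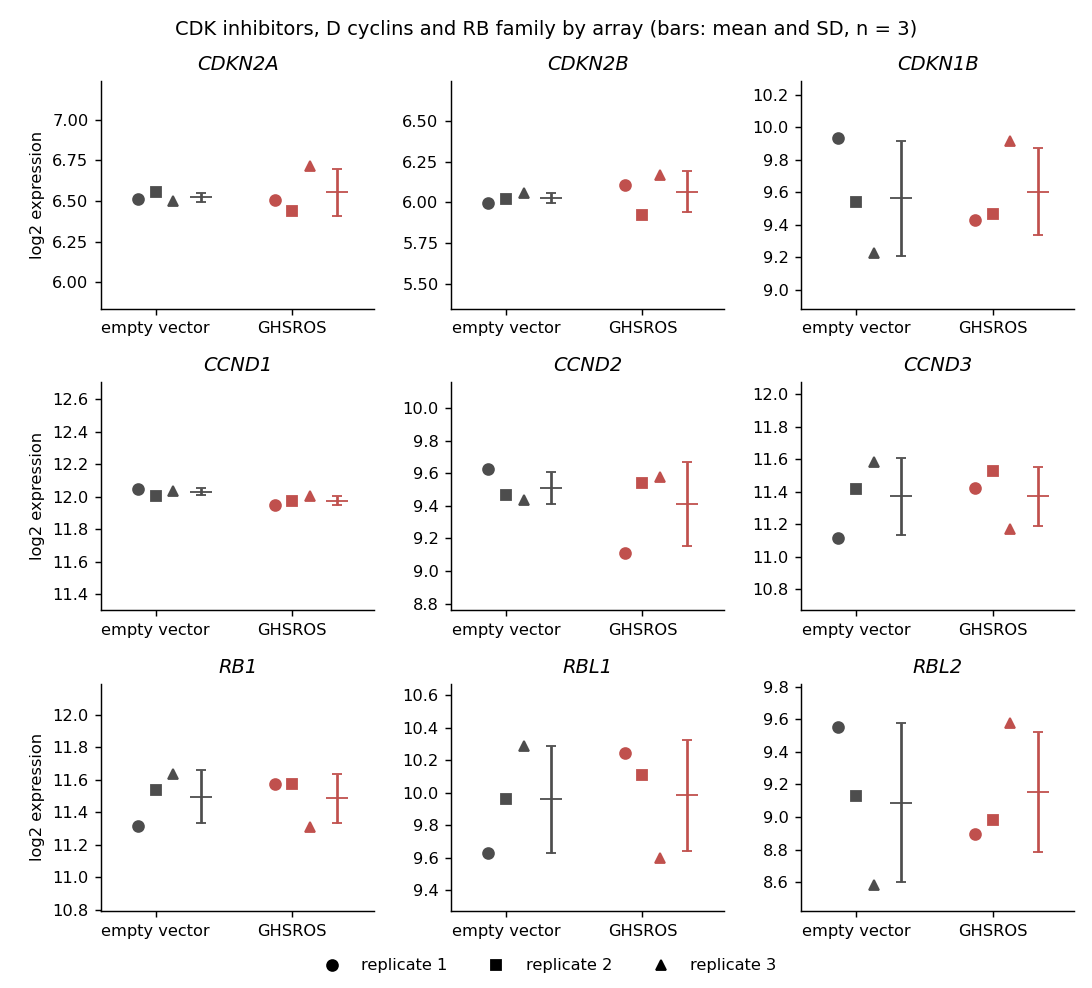
Log2 expression (y axis, 1.4 log2 units high in every panel) of the 9 measured members on each array, with empty-vector arrays in grey, GHSROS arrays in red, symbols for replicate numbers and bars for the mean and SD of 3 arrays. In CDKN1B and RBL2 vector array 1 and GHSROS array 3 are the highest points, in CCND3, RB1 and RBL1 they are the lowest, and CCND1 is flat.

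The retinoblastoma family split by member across the arrays, with RB1 and RBL1 on the same course and RBL2 on the opposite one. RB1, the tumour suppressor that restrains the activating E2F factors, had levels of 11.31, 11.54 and 11.63 with the vector and 11.57, 11.58 and 11.31 with GHSROS. Vector array 1 and GHSROS array 3 were low, at 11.31 each, and the other 4 arrays lay within 0.09 of each other. The group means were 11.496 ± 0.16 (SD, n = 3) and 11.49 ± 0.15 (SD, n = 3), and the difference of -0.01 (SE 0.12, limma adjusted p = 1) became 0.004 after quantile normalization.

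RBL1, a relative of RB1 that is itself a known E2F target gene and rises in cycling cells, had levels of 9.63, 9.96 and 10.29 with the vector and 10.24, 10.11 and 9.60 with GHSROS. The same arrays were lowest, and vector array 3 was highest. RBL2, the relative that accumulates in resting cells, had levels of 9.56, 9.13 and 8.58 with the vector and 8.90, 8.98 and 9.58 with GHSROS. Vector array 1 and GHSROS array 3 were now the highest and vector array 3 the lowest. For RBL1 the group means were 9.96 ± 0.33 and 9.98 ± 0.34 (SD, n = 3 each), a log2 fold change of 0.03 (SE 0.22, limma adjusted p = 1). For RBL2 they were 9.09 ± 0.49 and 9.15 ± 0.37 (SD, n = 3 each), a log2 fold change of 0.06 (SE 0.28, limma adjusted p = 1). RBL2 had the widest range of the 9 members, 1.00 over the 6 arrays, above that of 94.4% of all genes.

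The stretches of 250 bases before the listed starts of RBL1, RBL2 and CDKN1B are printed because these 3 members had the widest ranges over the arrays and RBL1 ran opposite to the other two. They are taken from RefSeq on GRCh38.p14, written 5′ to 3′ on the strand of the gene. They lie at chr20:37095998-37096247 (minus strand), chr16:53434221-53434470 (plus strand, the first of 2 listed starts of RBL2) and chr12:12717118-12717367 (plus strand). Capitals mark matches to the E2F motifs TTTGGCGC, TTTCCCGC and TTTCGCGC on either strand.
RBL1: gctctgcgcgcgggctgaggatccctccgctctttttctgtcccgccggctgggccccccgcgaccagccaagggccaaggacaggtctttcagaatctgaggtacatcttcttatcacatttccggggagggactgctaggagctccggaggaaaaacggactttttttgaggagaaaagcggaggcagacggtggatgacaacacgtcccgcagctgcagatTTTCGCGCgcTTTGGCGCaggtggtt
RBL2: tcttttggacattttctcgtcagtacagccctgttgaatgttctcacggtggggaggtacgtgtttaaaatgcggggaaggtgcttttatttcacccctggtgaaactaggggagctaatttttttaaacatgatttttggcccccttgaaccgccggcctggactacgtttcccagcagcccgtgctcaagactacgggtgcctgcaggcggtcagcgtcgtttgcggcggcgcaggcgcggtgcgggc
CDKN1B: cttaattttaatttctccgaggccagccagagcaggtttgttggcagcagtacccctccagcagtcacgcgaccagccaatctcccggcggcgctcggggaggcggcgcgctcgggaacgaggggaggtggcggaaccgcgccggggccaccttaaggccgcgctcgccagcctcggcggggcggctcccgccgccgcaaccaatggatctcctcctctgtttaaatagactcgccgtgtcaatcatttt

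RBL1 held TTTCGCGC from 26 to 19 bases and TTTGGCGC from 16 to 9 bases before its start, side by side without overlap. Over all 35116 listed windows of this length, TTTCGCGC was found in 0.439%, TTTGGCGC in 0.55%, TTTCCCGC in 1.39% and any of the 3 in 2.32%. By gene, 777 of 27305 with a listed start held at least 1 of the motifs (2.85%), as did 11 of 27 classic E2F target genes (40.7%) and 3 of 25 mitosis genes (12%). Of the 8 members with a listed start, RBL1 was the single one with a match. CDKN2A, CDKN2B, CDKN2C, CCND3, RB1, RBL2 and CDKN1B held none of these letters in their windows, and CCND1 and CCND2 are named only. The start listed for RB1 lies inside the gene, downstream of its first exon, so its window is not the main RB1 promoter. The forkhead motif GTAAACA (2.98% of windows, either strand) and the cell cycle element TTTGAA (13.3%) were also searched, and no window of a member held them. A match describes the letters alone and does not make a binding site.

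Set against its own mean over the 6 arrays, each member can be followed from array to array. RBL2 stood at 0.44 on vector array 1 and 0.46 on GHSROS array 3, at 0.01 on vector array 2, at -0.14 and -0.22 on GHSROS arrays 2 and 1 and at -0.54 on vector array 3. CDKN1B had the same 4 arrays in the same order below those 2, from -0.05 on vector array 2 to -0.36 on vector array 3. RBL1 ran the other way, from -0.37 and -0.34 on GHSROS array 3 and vector array 1 to 0.27 on GHSROS array 1 and 0.31 on vector array 3. CCND3 and RB1 followed RBL1 with smaller steps, from -0.26 to 0.21 and from -0.18 to 0.14.

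In 6 of the 9 members vector array 1 and GHSROS array 3 were either the lowest pair (CCND3, RB1 and RBL1) or the highest pair (CDKN1B, CCND2 and RBL2). That was so for 39.2% of all 18377 genes, 20.3% with this pair lowest and 18.9% with it highest. The pattern therefore describes these arrays widely and is not particular to the family. CCND2 belonged to it only in part, since its widest step was the low value of GHSROS array 1. CDKN2A, CDKN2B and CCND1 showed neither order.

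The order of arrays seen for RBL1 was close to that of genes E2F factors are known to turn on. For 29 classic E2F targets of S phase entry, the mean level was 9.79, 10.34 and 10.67 on vector arrays 1 to 3, and it was 10.49, 10.40 and 9.86 on GHSROS arrays 1 to 3. For 29 mitosis genes the mean was lowest on vector array 1 (10.00) and GHSROS array 3 (10.03) and reached 10.80 to 11.02 on the other 4 arrays. Between the groups 22 of the 29 mitosis genes were above 0 and 7 below, with a median of 0.05, where 50.86% of all genes were above 0. After quantile normalization the split was 27 and 2, with a median of 0.08. These genes moved together across the arrays, so the split does not count independent genes. Their mean differed by 0.05 between the groups, beside SDs of 0.54 with the vector and 0.55 with GHSROS (n = 3 each). Of the 29, 0 passed limma's adjusted p or had an unadjusted p under 0.05. For 25 genes of the ATF4 amino acid stress response that pair had the highest means, 9.93 and 9.97, and the other arrays 9.18 to 9.53. The pair was lowest in 27 of 29 E2F targets and 29 of 29 mitosis genes and highest in 17 of 25 ATF4 genes. In RNA from whole cultures, fewer cells in a cycle phase and less RNA per cell cannot be told apart.

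**Figure D4:**
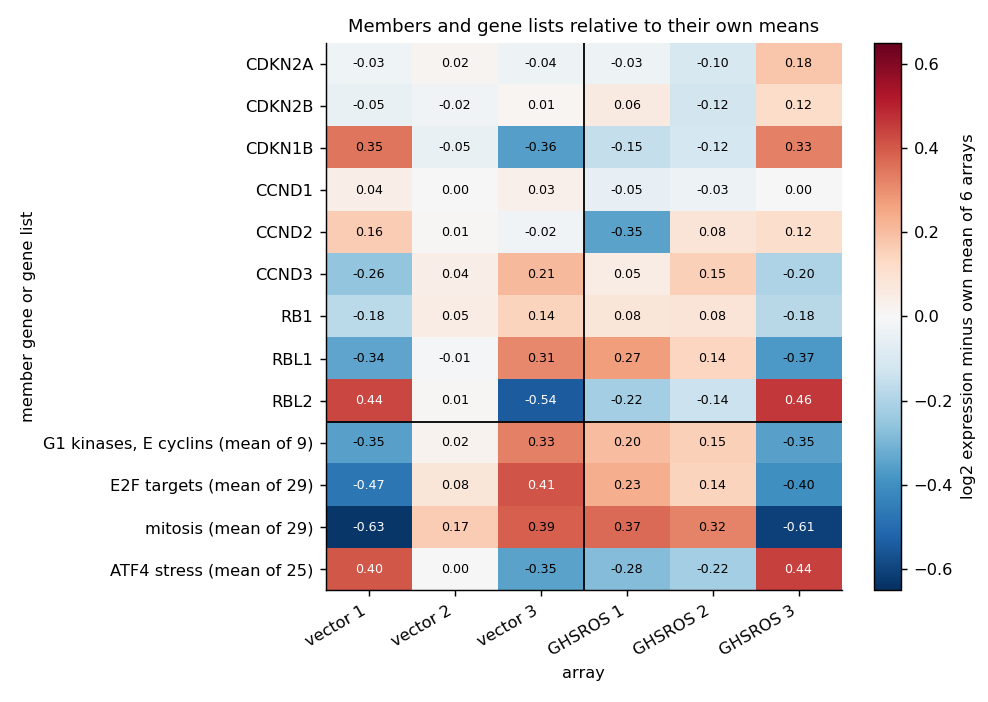
Log2 expression minus its own mean of the 6 arrays (colour and printed value) for the 9 measured members and the means of 4 gene lists (rows) on each array (columns, empty vector left of the line and GHSROS right of it). RBL2 and CDKN1B share colours with the ATF4 stress genes, while RBL1, RB1 and CCND3 share them with E2F targets and mitosis genes.

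With the mean of the mitosis genes on each array added to the fit as a covariate, chosen with these array patterns known, the SE of RBL2 went from 0.28 to 0.11 and its log2 fold change from 0.06 to 0.10. For CDKN1B the SE went from 0.21 to 0.09 and the fold change from 0.04 to 0.07, and for RBL1 the SE went from 0.22 to 0.09 and the fold change from 0.03 to -0.006. No member passed there either. Without both arrays numbered 3, also chosen with the patterns known, RBL1 was at 0.38 (unadjusted p = 0.0407) and RBL2 at -0.40 (unadjusted p = 0.0484), and limma's adjusted p was 0.532 for each. That omission keeps vector array 1, which stood apart, and drops GHSROS array 3, and without both of those arrays the estimates were 0.05 and 0.09.

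Markers of other cells were read on the same arrays. The mean of 7 blood cell markers lay between 4.76 and 4.97 on the 6 arrays, with the leukocyte gene PTPRC at 3.61, and that of 8 fibroblast markers between 5.23 and 5.44, from LUM at 3.48 and DCN at 3.64 to PDGFRB at 7.04 and COL1A1 at 7.73. Among these PDGFRB, a growth factor receptor gene, was highest on the pair that stood apart, at 7.44 and 7.52 against 6.52 to 7.16, as RBL2 and CDKN1B were. For 7 endothelial markers the mean was 6.89 and 7.06 on the pair that stood apart, against 6.37 to 6.63 elsewhere. Only 2 of the 7 had this pair highest. The receptor kinase genes KDR and TIE1 had this pair highest, KDR at 8.81 and 9.10 against 7.20 to 7.77 elsewhere and TIE1 at 8.73 and 8.91 against 7.44 to 8.32. The defining genes VWF, PECAM1 and CDH5 averaged 5.29, 6.10 and 6.998 over the 6 arrays. No marker was at 0, since array values have no zero, and the part of these genes in the results was not tested.

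The genes most like each of the 3 widest members were found by the root mean square difference of centred values over the 6 arrays. For RBL2 they were LGALS3, the gene of galectin-3, at 0.017, and the kinase genes MAP3K5 at 0.027 and MAP4K4 at 0.03. For CDKN1B they were NRIP1, a nuclear receptor corepressor gene, at 0.031, PODNL1 at 0.032 and EPB41L1, a membrane skeleton gene, at 0.033. For RBL1 they were HNRNPAB, an RNA-binding protein gene, at 0.019, AGK, a mitochondrial lipid kinase gene, at 0.026 and the nuclear pore gene NUP54 at 0.027. By the same measure RBL2 and CDKN1B stood 0.104 apart, which put CDKN1B at rank 94 from RBL2 and RBL2 at rank 377 from CDKN1B. RBL1 stood at 0.625 from RBL2 (rank 17574). From RBL1, CCND3 stood at 0.129 (rank 1020) and RB1 at 0.151 (rank 1505). These distances share 6 arrays and are given as a description.

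The rest of the pathway, from lists drawn up by role, likewise had 0 genes past limma's adjusted p of 0.05 and 0 at an unadjusted p under 0.05. Among 9 genes of the G1 kinases, E cyclins, the CDK-activating kinase and the phosphatase CDC25A, 4 had a log2 fold change above 0 and 5 below, with a median of -0.0002, which became 6 above and 3 below with a median of 0.01 after quantile normalization. The smallest p belonged to CDK7, the kinase of the CDK-activating complex, at -0.15 (SE 0.10). CDC25A, which removes inhibitory phosphates from CDK2, came next at 0.12 (SE 0.55), with levels of 7.75, 8.72 and 9.44 with the vector and 9.41, 9.15 and 7.71 with GHSROS. The groups of CDC25A thus overlapped fully while its range reached 1.72, and vector array 1 and GHSROS array 3 were lowest in 7 of the 9 genes of this list. The other genes read that carry a CDK inhibitor symbol were CDKN1A, CDKN1C, CDKN2D and CDKN3. All had estimates above 0, here and after quantile normalization or median centring, with a median of 0.04. CDKN2D, a further INK4 gene, differed by 0.08 (SE 0.09) and CDKN1C, the KIP gene of p57, by 0.04 (SE 0.08).

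Of 10 E2F and DP factor genes, 6 had a log2 fold change above 0 and 4 below, with a median of 0.01. E2F6, a repressor that does not bind retinoblastoma proteins, was the single gene of these lists whose groups did not overlap. Its levels were 8.61, 8.72 and 8.85 with the vector and 8.97, 8.88 and 8.88 with GHSROS, and its log2 fold change was 0.19 (SE 0.09, unadjusted p = 0.0886, limma adjusted p = 1). All GHSROS arrays lay above all vector arrays in 3.06% of all genes. E2F2, an activating factor, differed by 0.29 (SE 0.21), with its lowest level, 5.36, on vector array 1.

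The MuvB core, which RBL1 and RBL2 join in the DREAM complex, was read together with MYBL2 as a list of 6 genes. Of these, 2 were above 0 and 4 below, with a median of -0.03. LIN37 differed by -0.12 (SE 0.11) and LIN54, the DNA-binding subunit, by -0.05 (SE 0.10). Of 8 genes of ubiquitin ligases that act on p27, D cyclins and cyclin E, 3 were above 0 and 5 below, with a median of -0.01, a split that turned to 5 and 3 after quantile normalization and was 2 and 6 with median centring. CUL1, the scaffold of SCF ligases, differed by -0.18 (SE 0.12) and FBXO31, an F-box gene whose product targets cyclin D1, by -0.06 (SE 0.09). Of 29 E2F target genes measured, 12 were above 0 and 17 below (9 and 20 with median centring), with a median of -0.02. The DNA ligase gene LIG1 and the helicase gene MCM5 differed by -0.21 (SE 0.18) and -0.12 (SE 0.14). For each of these lists the median difference lay within 0.04 of the 0.0019 over all genes.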

How the data were processed

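Each array has 1 column of log2 values per probe set, deposited by the authors, and RMA is the tool the submitters' processing notes name for them. Its version, its settings and any filter are not stated there. RMA usually includes quantile normalization, so a shift shared by most genes would not show and dim differences may be compressed. Sample titles gave groups and replicate numbers. No column was left out (0), and precision is set by the 3 arrays per group.

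The platform annotation named 1 symbol for 19310 of 28869 probe sets, several for 1752 and none for 7807, and the first kind was used. RefSeq (GRCh38.p14) held 19279 of their Entrez identifiers and changed 0 symbols. Keeping each gene's brightest probe set gave 18377 genes, with no filter on level. GHSROS minus vector was fitted with limma 3.58.1 in R 4.3.3 (two-sided, group alone in the model), and p-values were adjusted by Benjamini-Hochberg over all genes, with a threshold of 0.05. The fit was tested on simulated data, made by adding known shifts to randomly chosen genes on the GHSROS arrays. The share of them recovered is not given here. Members and lists were chosen with earlier results of these data known. Named genes are all members, the flanking genes, markers that a statement turns on, the 2 smallest p-values of each pathway list and the 3 genes nearest to each of the 3 members with the widest range. Olfactory receptor genes, taken by symbol pattern, and promoter motifs were added after the values were seen.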

Additional observations from a re-analysis of the deposited data

How the results depend on the processing

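Under 17 alternatives the 9 members gave 151 values, and 0 passed limma's adjusted p of 0.05. Of the 151, 2 had an unadjusted p under 0.05 in limma (RBL1 and RBL2 without both arrays numbered 3). By sign, 120 kept that of the main fit and 31 turned. Many of the 120 were not free to turn. Settings that altered only the SE, the genes tested or the use of further probe sets left the members' log2 fold changes unchanged. The 120 therefore overstate how steady the signs were. The main log2 fold changes of the members lay between -0.10 and 0.06, and the cause of the turned signs was not tested. CDKN2A and CDKN2B fell below the filter at the median level and gave no value there. CCND1 kept its sign in each setting. Log2 fold changes turned to 0.0044 for RB1 with quantile normalization and to -0.0106 for CCND3 with median centring. With array weights they turned to -0.02772 for CDKN2A, -0.05653 for CDKN1B, 0.02772 for RB1 and -0.1052 for RBL2. Without both arrays that stood apart they turned to -0.057 for CDKN2A, -0.0238 for CDKN2B and -0.02755 for CCND3. Alternatives added after seeing the data were the mitosis mean as a covariate, which gave -0.01884 for CCND3 and -0.006055 for RBL1, and leaving out both arrays numbered 3, which gave -0.0608 for CDKN2A, -0.2856 for CDKN1B, 0.1468 for RB1 and -0.4013 for RBL2.

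Leaving out each array in turn gave log2 fold changes from -0.05087 to 0.08993 for CDKN2A, from -0.01032 to 0.1112 for CDKN2B and from -0.1307 to 0.2223 for CDKN1B. They ran from -0.184 to 0.04867 for CCND2, from -0.1276 to 0.1069 for CCND3 and from -0.1002 to 0.07788 for RB1, and from -0.1405 to 0.2183 for RBL1 and from -0.1888 to 0.2984 for RBL2. Over all genes, 0 passed the adjusted p in limma in every setting but the mitosis covariate, where 4 passed, none a member. Genes at an unadjusted p under 0.05 in limma numbered 325 of 18377. With the filter at the median level they numbered 76 of 9189, a smaller share. They numbered 877 with array weights, 878 with the mitosis covariate, 1710 without both arrays numbered 3, and 191 (without GHSROS array 1) to 480 (without vector array 3) with single arrays left out. Same-numbered arrays of the 2 groups deviated from their group means with correlations across genes of -0.714, 0.504 and -0.669. These values do not tell whether same-numbered samples were handled together. Across numbers, vector array 1 went with GHSROS array 3 (0.831) and vector array 3 with GHSROS array 1 (0.738), a structure shared by both groups that the fit on group alone leaves in the spread. With the replicate number as a block, limma again called 0 genes, and 223 had an unadjusted p under 0.05. No member could turn sign there. Each number holds an array of each group, so the block changes the SE and not the estimate.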
